A study of Mus musculus with 18 samples.

Results

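The amino acid response genes of O9-1 neural crest (NC) cells were followed through osteoblast differentiation with and without FGF2. They are Atf4 and 39 further genes known as its targets or as members of the response, so 40 genes of the 55335 gene identifiers counted. They were taken by symbol, with no measured value in the rule, though the list was chosen with earlier results of these data known. By role they were sorted into 6 regulators, 9 amino acid transporters, 8 enzymes of serine and one-carbon metabolism, 8 further targets and 9 cytosolic tRNA synthetases. O9-1 is a line of wildtype NC cells from the head of a mouse embryo, and each library holds the polyadenylated RNA of cells in bulk. All 18 libraries come from cells in differentiation medium that had received siRNA, with 3 replicates of each of 3 groups on d2.5 and again on d5. Ctrl+vehicle cells carried control siRNA and got no FGF2, Ctrl+FGF2 cells carried control siRNA and got FGF2, and Y/T dKD+FGF2 cells carried pooled siRNAs against Yap1 and Wwtr1 (the gene of Taz) and got FGF2. There is no knockdown group without FGF2, so the effect of the knockdown is known only in FGF2-treated cells, and all groups are of 1 cell line.

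Counts on genes ran from 10377151 to 14698525 a library (median 12330911). Levels are given as CPM (counts scaled to a common library total) after TMM scaling over all 18 libraries, in the order of replicates 1, 2 and 3, and changes as log2 fold changes ± SE from edgeR's quasi-likelihood test. A gene is called where its p-value, adjusted by the Benjamini-Hochberg method over all genes tested on that day, is under 0.05. Nothing in the sample annotation says that replicates were separate cultures, so p-values measure the spread between these libraries, which may be technical. The annotation gives each day as a batch of its own, so levels of the 2 days are set side by side and only effects within a day were compared between days. Fewer cells with a transcript and less of it per cell cannot be told apart in bulk RNA. The siRNA targets were lower in Y/T dKD+FGF2 than in Ctrl+FGF2, with log2 fold changes of -0.96 ± 0.04 for Yap1 and -0.72 ± 0.04 for Wwtr1 at d2.5 and of -1.12 ± 0.05 and -0.80 ± 0.04 at d5. All 8 NC and mesenchyme markers were detected in every group, with a summed level of 5450 to 7710 CPM. Markers of blood cells (Ptprc, Csf1r, Adgre1), endothelium (Pecam1, Cdh5, Kdr) and epithelium (Epcam, Cdh1, Krt5) summed to at most 3.87 CPM for any of these lists in any library.

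Cells that run short of an amino acid, or meet another stress that halts general translation, phosphorylate the initiation factor eIF2, and the translation of Atf4 mRNA then goes up while that of most mRNAs goes down. Atf4 is a bZIP transcription factor that pairs with C/EBP and other bZIP proteins and switches on genes for the uptake and synthesis of amino acids, for charging tRNAs and for one-carbon units. Growth signals through mTORC1 also raise Atf4, and in bone Atf4 is known as a factor that osteoblasts need for making collagen. Because Atf4 is controlled to a large extent at translation, its mRNA level is not a measure of its protein, which these data do not hold.

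The sites through which Atf4 acts with C/EBP partners hold a core of the letters TGATG, any base, then AA, named the C/EBP-ATF response element or, in Asns, the nutrient-sensing element. The core was looked for on both strands of promoter windows from RefSeq (GRCm38.p6), each from 250 bases before to 50 bases after a start site, and with no other motif searched no overlap arises. Windows were at hand for 34 of the 40 genes. The letters stood in at least 1 window of 12 of these 34 genes (35.3%), against 1219 of 27025 genes in the table (4.51%). The genes were listed as known targets of Atf4 or members of its response. Their share is thus not independent of the motif, and the difference was not tested. By role they were found in 3 of 6 regulators, 2 of 6 transporters, 0 of 8 serine and one-carbon enzymes, 3 of 7 further targets and 4 of 7 synthetases. Those shown belong to 3 regulators, to the transporter with 2 matches, to Asns and Vldlr, which fell far at d5, and to Pycr1, the target that fell at d2.5. Capitals mark the core, read on the strand of the gene, so that a match on the other strand reads TT, any base, then CATCA.
Trib3 (chr2:152344028-152344057, minus strand): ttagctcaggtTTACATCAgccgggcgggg
Chac1 (chr2:119351038-119351067, plus strand): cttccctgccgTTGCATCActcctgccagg
Nupr1 (chr7:126625562-126625591, minus strand): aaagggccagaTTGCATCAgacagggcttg
Slc7a11, upstream match (chr3:50443661-50443690, minus strand): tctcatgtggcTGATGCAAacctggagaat
Slc7a11, second match (chr3:50443642-50443671, minus strand): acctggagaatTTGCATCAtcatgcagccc
Asns (chr6:7693214-7693243, minus strand): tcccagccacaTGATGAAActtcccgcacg
Vldlr (chr19:27216809-27216838, plus strand): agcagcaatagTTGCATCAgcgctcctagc
Pycr1 (chr11:120643833-120643862, minus strand): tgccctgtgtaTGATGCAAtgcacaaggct

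Relative to the RefSeq start of its window, the first capital lies 193 bases before it in Chac1, 110 before it in Nupr1, 66 and 47 before it in Slc7a11, 23 before it in Asns, 200 before it in Vldlr and 103 before it in Pycr1, and at base 15 from it in Trib3. These starts differ from the GENCODE gene ends given in this report. By GENCODE the matches of Nupr1, Asns and Vldlr lie inside the gene, and that of Trib3 lies before it. For 35 of the 40 windows, bases 21 to 45 after the start were found near the 5' end of a GENCODE transcript of the gene. The further genes with the letters in a window were Slc1a4, Gars, Aars (which also had 2 matches), Yars and Iars. A match is a run of letters and not a measured site, and binding of Atf4 was not measured in these libraries.

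FGF2 moved the amino acid response genes in opposite directions on the 2 days. At d2.5, 35 of the 39 genes tested rose with FGF2, 2 fell (Pycr1 and Slc38a2) and 2 were not called (Atf5 and Slc7a3), while 67.6% of all 13677 genes tested were called, 33.5% higher and 34.1% lower. Their median log2 fold change was 0.70, against 0.00 over all genes tested, and 22 of them rose at least 1.5-fold, as 14.0% of all genes did. At d5, 33 of 38 genes tested fell, 1 rose (Shmt1) and 4 were not called (Mthfd1, Slc1a5, Slc38a2 and Wars), while 47.2% of 13304 genes were called, 23.7% lower and 23.5% higher. Here the median log2 fold change was -1.17, against 0.02 over all genes, and 32 of them fell at least 1.5-fold, as 6.47% of all genes did. The groups did not overlap for 37 of 39 genes at d2.5 (70.6% of all genes) and for 34 of 38 at d5 (54.5% of all genes). The comparisons of the 2 days share no library, and 31 of the 38 genes tested on both days rose at d2.5 and fell at d5, as did 11.7% of the 12845 genes tested on both days. The 40 genes together took 0.716% ± 0.0101 of the gene counts of Ctrl+vehicle, 1.11% ± 0.0202 of those of Ctrl+FGF2 and 0.989% ± 0.0255 of those of Y/T dKD+FGF2 on d2.5, with 0.497% ± 0.0793, 0.283% ± 0.00454 and 0.263% ± 0.00126 on d5 (SD, n = 3).

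The knockdown under FGF2 gave smaller changes. At d2.5, 26 of 39 genes were lower in Y/T dKD+FGF2 than in Ctrl+FGF2, 0 were higher and 13 were not called, while 24.5% of all genes were called, 13.6% lower and 10.8% higher. DESeq2 called 24 lower and 0 higher, and edgeR gave 0 higher at an unadjusted p under 0.05. A single edgeR fit of all 18 libraries called fewer, 18 lower and 0 higher (46.2%, beside 21% of all genes). The median log2 fold change of the 39 genes was -0.19, against 0.00 over all genes, and Slc6a9 alone passed 1.5-fold (1.07% of all genes were lower by that much). By role, 5 of 6 regulators, 6 of 9 transporters, 3 of 8 serine and one-carbon enzymes, 7 of 7 further targets and 5 of 9 synthetases were lower, with medians of -0.34, -0.19, -0.05, -0.27 and -0.10. At d5, 7 of 38 genes (18.4%) were called, 6 lower and 1 higher, while 31.7% of all genes were called, 16.1% lower and 15.6% higher. The median was -0.12. The count at d5 rose to 18 (14 lower, 4 higher) in a fit of the 2 groups alone, to 15 and 17 without Ctrl+vehicle replicate 1 or 2, and to 11 without Ctrl+FGF2 replicate 1. The share called was then above that of all genes in the fit of 2 groups (47.4% of the 38 genes, 34.0% of all genes) and without Ctrl+vehicle replicate 1 (39.5% and 33.3%) or 2 (44.7% and 33.1%), while without Ctrl+FGF2 replicate 1 it was 28.9% beside 29.1%. The d5 Ctrl+vehicle libraries enter the shared estimate of spread in the fit of 3 groups. The groups did not overlap for 29 of 39 genes at d2.5 (39.5% of all genes) and for 18 of 38 at d5 (45.1% of all genes). The comparisons with FGF2 and with the knockdown of 1 day share their Ctrl+FGF2 libraries, so the values of each gene are given side by side and their relation was not tested.

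**Figure D1:**
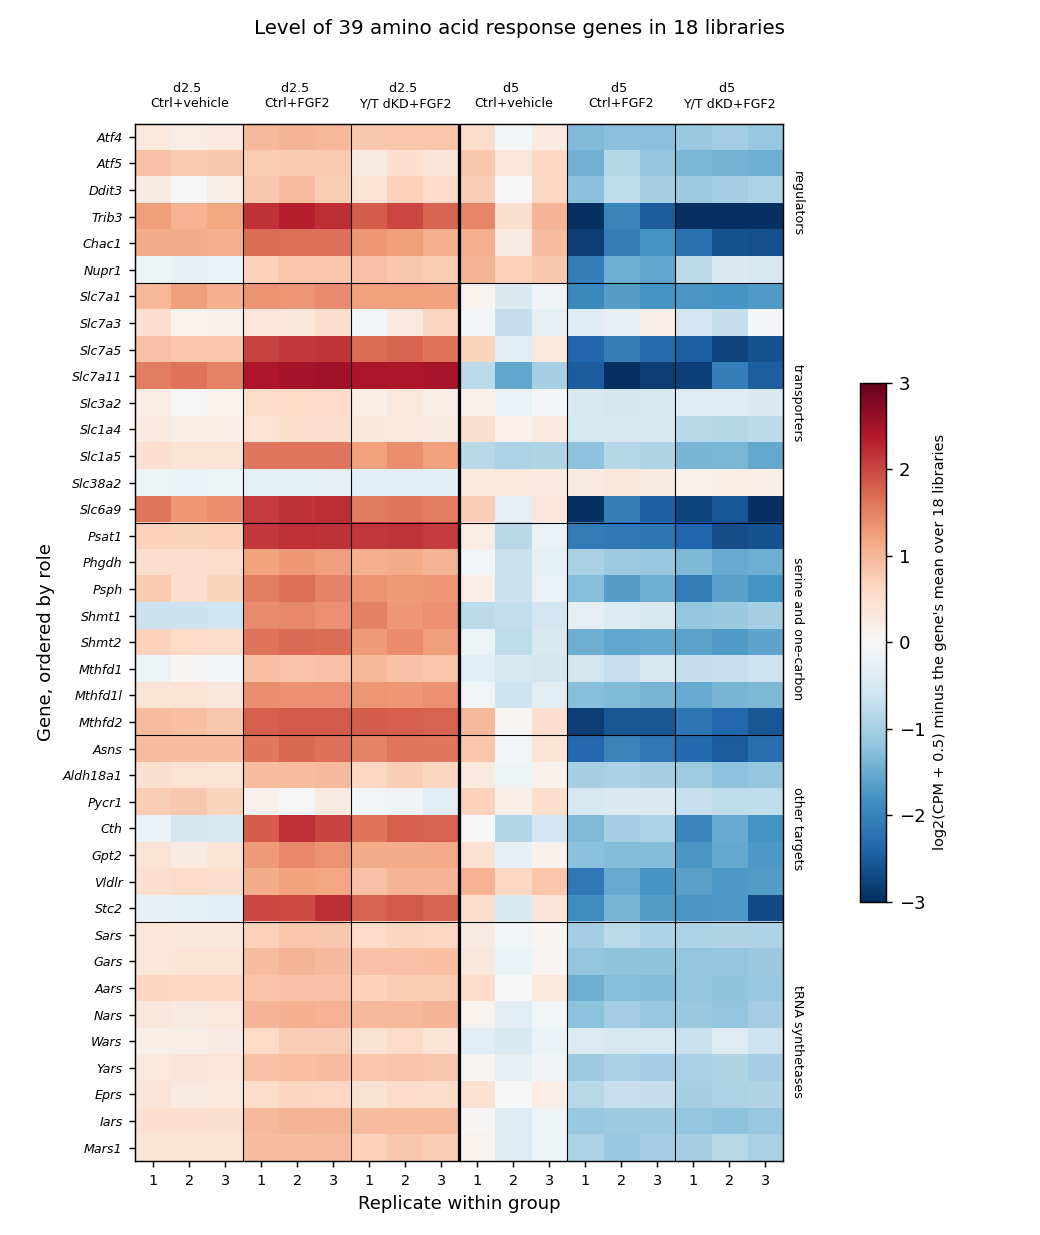
Level of 39 genes (rows, by role; Cbs is left out) in 18 libraries (columns), as log2(CPM + 0.5) minus the gene's mean over all libraries, red above and blue below it. At d2.5 most rows are darkest red in both FGF2-treated groups, at d5 most are blue in both, and at d5 Ctrl+vehicle replicate 2 is the lowest of its group for 35 of 38 genes.

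**Figure D2:**
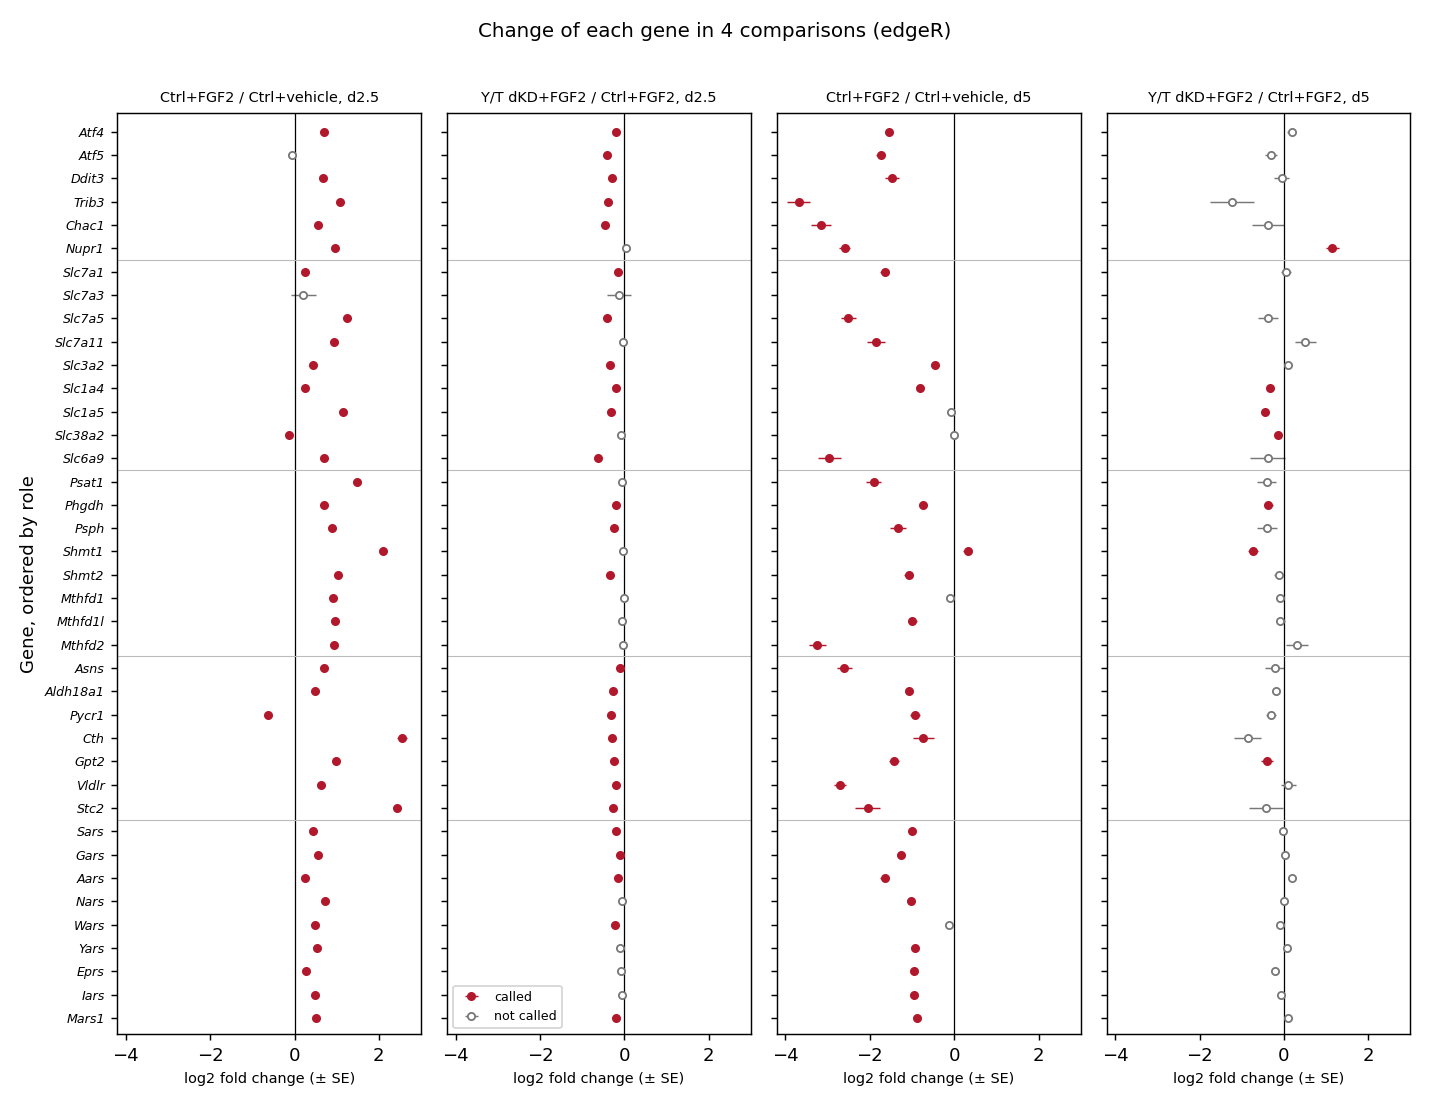
Log2 fold change (horizontal axis, ± SE) of each gene (vertical axis, by role) in 4 comparisons, one panel each, with filled red points where the adjusted p is under 0.05. With FGF2, points lie right of 0 for 36 of 39 genes at d2.5 and for all genes but Shmt1 at or left of 0 at d5, and with the knockdown they lie within 0.62 of 0 at d2.5.

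The regulators rose with FGF2 at d2.5, except for Atf5, and all 6 fell at d5. Atf4 (chromosome 15, 80255184 to 80257541, plus strand, GRCm38) was at 377, 353 and 371 CPM in Ctrl+vehicle, 594, 611 and 605 CPM in Ctrl+FGF2 and 527, 539 and 532 CPM in Y/T dKD+FGF2 at d2.5. At d5 Atf4 was at 443, 289 and 367 CPM in Ctrl+vehicle, 119, 126 and 126 CPM in Ctrl+FGF2 and 138, 147 and 136 CPM in Y/T dKD+FGF2. The 3 groups of d2.5 did not overlap, with Ctrl+FGF2 highest and Ctrl+vehicle lowest, and at d5 every Ctrl+vehicle library was above every FGF2-treated one. With FGF2 Atf4 thus rose 1.63-fold at d2.5 (log2 0.71 ± 0.03, adjusted p = 6.6e-19) and fell by a log2 change of -1.55 ± 0.10 at d5 (adjusted p = 1.5e-09). In Y/T dKD+FGF2 it was at 87.7% of Ctrl+FGF2 at d2.5 (log2 -0.19 ± 0.03, adjusted p = 3.2e-05). At d5 its 3 knockdown libraries lay above the 3 Ctrl+FGF2 libraries, in a comparison where 45.1% of all genes did not overlap. The difference did not pass the test (log2 0.18 ± 0.11, adjusted p = 0.219). Per kilobase of exon, Atf4 had the highest level of the 40 genes in both Ctrl+vehicle groups (156 CPM per kilobase at d2.5 and 155 at d5), while at d5 in Ctrl+FGF2 (52.3 CPM per kilobase) it came after Slc38a2 (106) and Slc3a2 (56.7).

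Trib3 (chromosome 2, 152337422 to 152344032, minus strand), a pseudokinase that binds Atf4 and holds back its activity, changed most of the regulators with FGF2 on both days. At d2.5 it was at 59.4, 51.1 and 56.4 CPM in Ctrl+vehicle, 113, 125 and 115 CPM in Ctrl+FGF2 and 87.7, 99.3 and 84.2 CPM in Y/T dKD+FGF2. At d5 Trib3 was at 68.8, 34.4 and 50.7 CPM in Ctrl+vehicle, 1.65, 5.85 and 3.95 CPM in Ctrl+FGF2 and 2.21, 1.41 and 1.32 CPM in Y/T dKD+FGF2. Its d2.5 groups did not overlap, its d5 Ctrl+vehicle libraries were far above all others, and Ctrl+FGF2 replicate 1 at d5 lay among the knockdown libraries. It rose with FGF2 at d2.5 (log2 1.07 ± 0.06, adjusted p = 7.5e-17) and fell at d5 (log2 -3.69 ± 0.27, adjusted p = 7.2e-09), the largest fall of the 38 genes tested. With the knockdown it was lower at d2.5 (log2 -0.39 ± 0.05) and its difference at d5 was not called (log2 -1.23 ± 0.52, adjusted p = 0.0838), on 13 to 72 reads a library.

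Chac1 (chromosome 2, 119351229 to 119354381, plus strand) encodes an enzyme that breaks down glutathione. At d2.5 it was at 32.3, 32.5 and 31.3 CPM in Ctrl+vehicle, 48, 47.6 and 47.4 CPM in Ctrl+FGF2 and 37.4, 35.7 and 31.9 CPM in Y/T dKD+FGF2, and at d5 at 32, 17.6 and 28.6 CPM in Ctrl+vehicle, 1.65, 3.09 and 3.86 CPM in Ctrl+FGF2 and 2.72, 1.99 and 1.93 CPM in Y/T dKD+FGF2. The FGF2 libraries were above the Ctrl+vehicle libraries at d2.5 and below them at d5, and the d2.5 knockdown libraries lay between, with 1 of them among the Ctrl+vehicle values. Its log2 fold change with FGF2 was 0.56 ± 0.06 at d2.5 and -3.15 ± 0.24 at d5, and with the knockdown -0.45 ± 0.06 at d2.5 (adjusted p = 8.3e-07) and -0.38 ± 0.37 at d5 (adjusted p = 0.493).

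Ddit3 (chromosome 10, 127290774 to 127296288, plus strand), also named CHOP, is a C/EBP-family factor tied to prolonged stress. It was at 36.4, 30.3 and 34.1 CPM in Ctrl+vehicle, 53.2, 58.4 and 51.6 CPM in Ctrl+FGF2 and 40.4, 49.4 and 44.6 CPM in Y/T dKD+FGF2 on d2.5 and at 50.3, 30.1 and 46.3 CPM in Ctrl+vehicle, 12.2, 17.5 and 14.9 CPM in Ctrl+FGF2 and 13.9, 14.4 and 15.4 CPM in Y/T dKD+FGF2 at d5. FGF2 and vehicle libraries did not overlap on either day, and the knockdown libraries were below Ctrl+FGF2 at d2.5 and among them at d5. The log2 fold changes were 0.68 ± 0.07 and -1.47 ± 0.16 with FGF2 at d2.5 and d5, and -0.29 ± 0.07 (adjusted p = 0.00189) and -0.05 ± 0.18 (adjusted p = 0.875) with the knockdown. The annotation lists a second, overlapping identifier under the name Ddit3, which held 0 reads in every library, and reads in the shared stretch were counted for neither, so the level of Ddit3 is a lower limit.

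Nupr1 (chromosome 7, 126623249 to 126630861, minus strand), a small stress-induced chromatin protein, was the 1 member called higher with the knockdown in the fit of 3 groups. At d5 a fit of the 2 groups alone called 4 members higher, and fits without Ctrl+vehicle replicate 1 or 2 called 3 each. At d2.5 Nupr1 was at 18.9, 18 and 18.4 CPM in Ctrl+vehicle, 33.9, 37.5 and 37.9 CPM in Ctrl+FGF2 and 39.1, 36.8 and 36.1 CPM in Y/T dKD+FGF2. At d5 Nupr1 was at 42.8, 34.6 and 37.2 CPM in Ctrl+vehicle, 4.59, 7.32 and 6.73 CPM in Ctrl+FGF2 and 11.9, 15.4 and 14.5 CPM in Y/T dKD+FGF2. The d2.5 knockdown libraries overlapped with the Ctrl+FGF2 libraries, whereas at d5 all 3 were above Ctrl+FGF2 and below Ctrl+vehicle. Nupr1 rose with FGF2 at d2.5 (log2 0.97 ± 0.07, adjusted p = 5.2e-14) and fell at d5 (log2 -2.59 ± 0.13, adjusted p = 8.3e-11). The knockdown left a log2 difference of 0.03 ± 0.06 at d2.5 (adjusted p = 0.809) and raised it 2.21-fold at d5 (log2 1.15 ± 0.16, adjusted p = 1.8e-05).

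Atf5 (chromosome 7, 44812256 to 44816658, minus strand), a bZIP factor close to Atf4 and likewise controlled at translation, did not follow the other regulators at d2.5. It was at 130, 123 and 124 CPM in Ctrl+vehicle, 121, 123 and 122 CPM in Ctrl+FGF2 and 85.9, 100 and 93.4 CPM in Y/T dKD+FGF2 on d2.5 and at 125, 90.9 and 110 CPM in Ctrl+vehicle, 25.8, 38.9 and 30.8 CPM in Ctrl+FGF2 and 26.9, 26 and 25.3 CPM in Y/T dKD+FGF2 at d5. Vehicle and FGF2 libraries overlapped at d2.5, and the knockdown libraries were below both. The log2 fold change with FGF2 was -0.06 ± 0.04 at d2.5 (adjusted p = 0.265) and -1.74 ± 0.11 at d5 (adjusted p = 1.6e-09), and with the knockdown -0.40 ± 0.05 at d2.5 (adjusted p = 1.6e-07) and -0.30 ± 0.14 at d5 (adjusted p = 0.109).

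**Figure D3:**
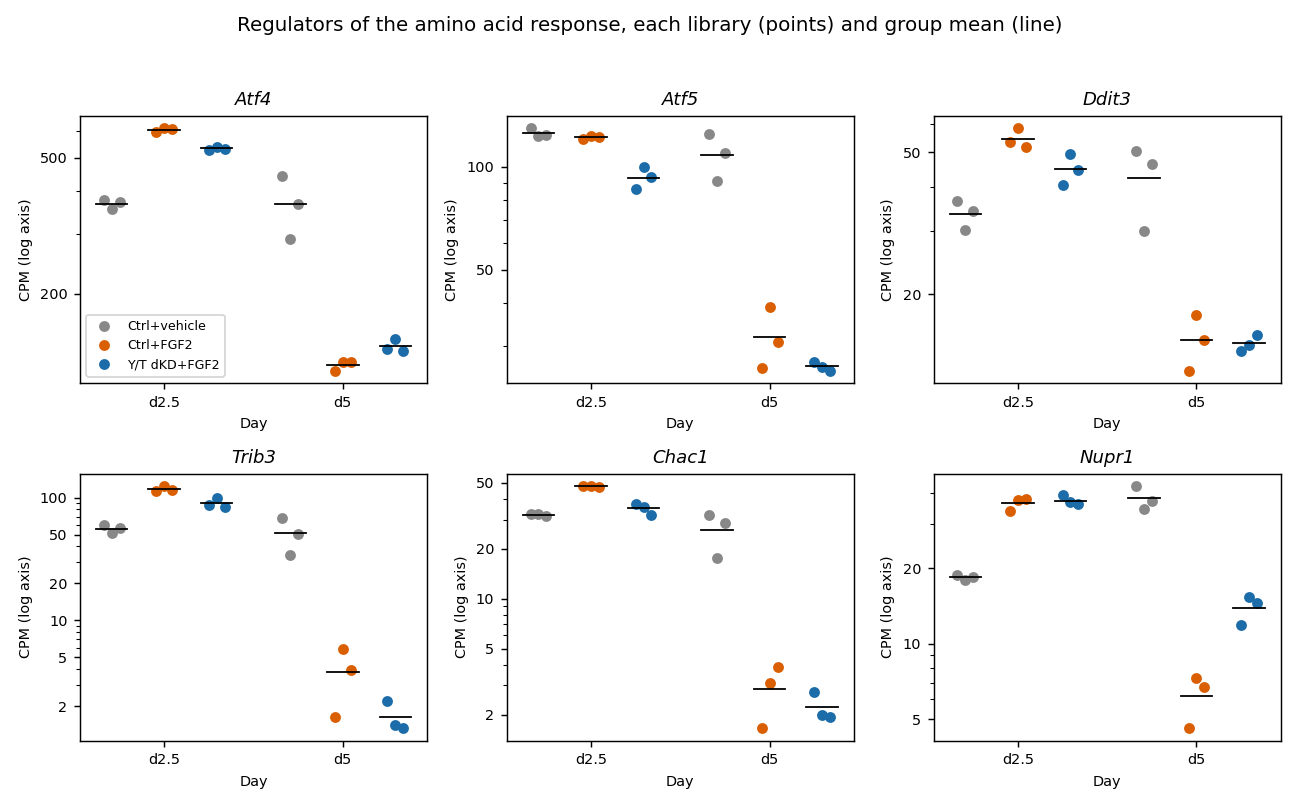
CPM of the 6 regulators (log axis) in every library by day, with points in grey for Ctrl+vehicle, orange for Ctrl+FGF2 and blue for Y/T dKD+FGF2 and a line at each group mean. Mean Atf4 was 367 ± 12.7 CPM in Ctrl+vehicle at d2.5 and 366 ± 76.9 CPM at d5 (SD, n = 3), while FGF2-treated cells were above it at d2.5 and below it at d5, and at d5 every blue point lies above every orange one for Nupr1 and, by less, for Atf4.

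The transporters rose with FGF2 at d2.5 in 7 of 9 cases and fell at d5 in 6 of 8 tested. Slc7a5 (chromosome 8, 121881150 to 121907694, minus strand) encodes LAT1, which takes up leucine and other large neutral amino acids as a heterodimer with the product of Slc3a2. It was at 244, 234 and 236 CPM in Ctrl+vehicle, 539, 578 and 586 CPM in Ctrl+FGF2 and 424, 445 and 409 CPM in Y/T dKD+FGF2 at d2.5. At d5 Slc7a5 was at 208, 106 and 163 CPM in Ctrl+vehicle, 24.8, 30.9 and 26.2 CPM in Ctrl+FGF2 and 23.6, 18.9 and 20.9 CPM in Y/T dKD+FGF2. Its 3 groups were apart on both days, highest with FGF2 at d2.5 and highest with vehicle at d5. Slc7a5 rose 2.36-fold with FGF2 at d2.5 (log2 1.24 ± 0.04, adjusted p = 1.9e-23) and fell at d5 (log2 -2.51 ± 0.18, adjusted p = 4.3e-09). The knockdown lowered it at d2.5 (log2 -0.42 ± 0.04, adjusted p = 2.6e-10), and at d5 its log2 difference of -0.38 ± 0.23 was not called (adjusted p = 0.234). Its partner Slc3a2 moved less, with log2 changes of 0.45 ± 0.04 and -0.45 ± 0.06 with FGF2 at d2.5 and d5, -0.35 ± 0.04 with the knockdown at d2.5 (adjusted p = 2.8e-07) and 0.10 ± 0.06 at d5, not called.

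Slc7a11 (chromosome 3, 49892526 to 50443614, minus strand) encodes xCT, the cystine importer that feeds glutathione, and also pairs with Slc3a2. It was at 146, 154 and 140 CPM in Ctrl+vehicle, 270, 284 and 289 CPM in Ctrl+FGF2 and 276, 269 and 280 CPM in Y/T dKD+FGF2 on d2.5 and at 28.1, 16.6 and 24.8 CPM in Ctrl+vehicle, 8.36, 4.23 and 6.55 CPM in Ctrl+FGF2 and 6.72, 11.7 and 8.55 CPM in Y/T dKD+FGF2 at d5. FGF2 and vehicle libraries were apart on both days, and the knockdown libraries overlapped with Ctrl+FGF2 on both. The log2 changes with FGF2 were 0.93 ± 0.04 (adjusted p = 9.0e-20) and -1.85 ± 0.22 (adjusted p = 2.4e-06), and those with the knockdown were -0.04 ± 0.04 and 0.51 ± 0.26, neither called. Its mean level in cells without FGF2 was 146 ± 7.27 CPM at d2.5 beside 23.1 ± 5.95 CPM at d5 (SD, n = 3).

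Slc6a9, the glycine transporter GlyT1, was the gene with the largest fall under the knockdown at d2.5. At d2.5 it was at 65.2, 52.7 and 56.4 CPM in Ctrl+vehicle, 91.8, 96 and 100 CPM in Ctrl+FGF2 and 62.3, 64.2 and 61.9 CPM in Y/T dKD+FGF2. At d5 Slc6a9 was at 35.5, 17 and 27.2 CPM in Ctrl+vehicle, 1.84, 4.63 and 3.41 CPM in Ctrl+FGF2 and 2.64, 3.16 and 1.73 CPM in Y/T dKD+FGF2. The d2.5 knockdown libraries lay below every Ctrl+FGF2 library and within the range of Ctrl+vehicle, and at d5 both FGF2-treated groups were far below Ctrl+vehicle and overlapped. With FGF2 its log2 change was 0.71 ± 0.05 at d2.5 and -2.96 ± 0.27 at d5, and with the knockdown -0.62 ± 0.05 at d2.5 (adjusted p = 7.7e-10) and -0.39 ± 0.41 at d5 (adjusted p = 0.515).

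Slc1a5, or ASCT2, the main glutamine carrier of growing cells, rose with FGF2 at d2.5 without a fall at d5. It was at 71.9, 68 and 67.3 CPM in Ctrl+vehicle, 153, 155 and 155 CPM in Ctrl+FGF2 and 119, 135 and 119 CPM in Y/T dKD+FGF2 on d2.5 and at 28.4, 25.9 and 27.1 CPM in Ctrl+vehicle, 21.5, 27.6 and 26.7 CPM in Ctrl+FGF2 and 19.1, 19.3 and 17.2 CPM in Y/T dKD+FGF2 at d5. At d5 the Ctrl+FGF2 and Ctrl+vehicle libraries overlapped, and the knockdown libraries were below both. The log2 changes with FGF2 were 1.15 ± 0.05 (adjusted p = 4.6e-20) and -0.08 ± 0.09 (adjusted p = 0.462), and the knockdown lowered it on both days (log2 -0.32 ± 0.04 and -0.45 ± 0.09, adjusted p = 1.6e-06 and 0.00117).

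Slc1a4, the alanine, serine and cysteine carrier ASCT1, was at 136, 124 and 127 CPM in Ctrl+vehicle, 148, 158 and 160 CPM in Ctrl+FGF2 and 139, 138 and 132 CPM in Y/T dKD+FGF2 on d2.5 and at 154, 123 and 135 CPM in Ctrl+vehicle, 76.5, 78.5 and 76.8 CPM in Ctrl+FGF2 and 61.2, 60.7 and 64.1 CPM in Y/T dKD+FGF2 at d5. Each group was apart from the next in both comparisons of each day. Its log2 changes were 0.25 ± 0.04 and -0.81 ± 0.06 with FGF2 and -0.19 ± 0.04 and -0.33 ± 0.07 with the knockdown, all called. Slc7a1, the arginine and lysine carrier CAT1, was at 190, 229 and 199 CPM in Ctrl+vehicle, 245, 238 and 256 CPM in Ctrl+FGF2 and 224, 226 and 220 CPM in Y/T dKD+FGF2 on d2.5 and at 102, 70.2 and 88.1 CPM in Ctrl+vehicle, 24.7, 29.8 and 27.4 CPM in Ctrl+FGF2 and 28.1, 27.5 and 29.2 CPM in Y/T dKD+FGF2 at d5. Ctrl+FGF2 was above Ctrl+vehicle at d2.5 and well below it at d5 (log2 0.24 ± 0.05 and -1.65 ± 0.11), and the knockdown gave -0.15 ± 0.05 at d2.5 (adjusted p = 0.0149) and 0.04 ± 0.12 at d5, not called.

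Slc38a2, the sodium-coupled carrier SNAT2 and a classical gene of the amino acid response, stayed within a narrow range in every group. Its lowest library was at 602 CPM and its highest at 689 CPM at d2.5, and at d5 they were at 838 and 968 CPM. With FGF2 its log2 change was -0.12 ± 0.03 at d2.5 (adjusted p = 2.7e-04) and 0.00 ± 0.03 at d5 (adjusted p = 0.966). The knockdown lowered it by a log2 change of -0.14 ± 0.03 at d5 (adjusted p = 0.0041). Slc7a3, a further arginine carrier, had 4 to 22 reads a library, did not pass the filter on low counts at d5 and was not called at d2.5.

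Serine and one-carbon enzymes were the role group in which every gene rose at least 1.5-fold with FGF2 at d2.5, and the median of their log2 fold changes was 0.95. At d5, 6 of the 8 fell, all at least 1.5-fold, with a median of -1.04. Phgdh, Psat1 and Psph make serine from a glycolytic intermediate in 3 steps. Phgdh was at 221, 220 and 225 CPM in Ctrl+vehicle, 351, 378 and 366 CPM in Ctrl+FGF2 and 319, 329 and 312 CPM in Y/T dKD+FGF2 on d2.5 and at 144, 96 and 127 CPM in Ctrl+vehicle, 77.5, 71.4 and 69.1 CPM in Ctrl+FGF2 and 60.3, 53.2 and 55.4 CPM in Y/T dKD+FGF2 at d5. Psat1 (chromosome 19, 15904678 to 15947337, minus strand) was at 244, 238 and 244 CPM in Ctrl+vehicle, 656, 694 and 678 CPM in Ctrl+FGF2 and 653, 664 and 645 CPM in Y/T dKD+FGF2 on d2.5 and at 175, 84.3 and 131 CPM in Ctrl+vehicle, 35, 33.5 and 33.3 CPM in Ctrl+FGF2 and 28.7, 23.4 and 24.4 CPM in Y/T dKD+FGF2 at d5. Psph was at 36, 29.5 and 32.9 CPM in Ctrl+vehicle, 60.4, 65.8 and 58.3 CPM in Ctrl+FGF2 and 53.1, 51.1 and 51.4 CPM in Y/T dKD+FGF2 on d2.5 and at 23.9, 13.1 and 17.8 CPM in Ctrl+vehicle, 8.18, 6.26 and 7.18 CPM in Ctrl+FGF2 and 4.42, 6.31 and 5.6 CPM in Y/T dKD+FGF2 at d5. For all 3 the d2.5 FGF2 libraries were above and the d5 FGF2 libraries below every Ctrl+vehicle library of that day.

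With FGF2 Psat1 rose 2.77-fold at d2.5 (log2 1.47 ± 0.03, adjusted p = 6.5e-27), the smallest p-value of the 40 genes in any comparison. Phgdh and Psph rose by log2 0.70 ± 0.03 and 0.90 ± 0.06. At d5 the log2 changes were -1.91 ± 0.18 for Psat1, -0.74 ± 0.10 for Phgdh and -1.32 ± 0.19 for Psph. The knockdown lowered Phgdh on both days (log2 -0.20 ± 0.03 and -0.37 ± 0.11, adjusted p = 5.9e-05 and 0.015) and Psph at d2.5 (log2 -0.25 ± 0.06). The d5 call of Phgdh was lost without Y/T dKD+FGF2 replicate 2 or 3 (log2 -0.36 to -0.34, adjusted p = 0.0530 to 0.0668). Psat1 was not called on either day (log2 -0.06 ± 0.03 and -0.41 ± 0.22, adjusted p = 0.171 and 0.169). Its d5 knockdown libraries were all below Ctrl+FGF2, in a comparison where 45.1% of all genes did not overlap.

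Shmt1 and Shmt2 split serine into glycine and a one-carbon unit in the cytosol and in mitochondria, and they differed in direction at d5. Shmt1 was at 9.25, 9.23 and 9.66 CPM in Ctrl+vehicle, 40.5, 41.4 and 39.4 CPM in Ctrl+FGF2 and 43.4, 37.1 and 39.2 CPM in Y/T dKD+FGF2 at d2.5. At d5 Shmt1 was at 8.34, 8.74 and 9.77 CPM in Ctrl+vehicle, 11.9, 11.1 and 10.5 CPM in Ctrl+FGF2 and 6.38, 6.56 and 7.13 CPM in Y/T dKD+FGF2. The 6 FGF2-treated libraries of d2.5 were far above Ctrl+vehicle, and at d5 Ctrl+FGF2 was the highest and Y/T dKD+FGF2 the lowest group, with no overlap. Shmt1 rose with FGF2 at d2.5 (log2 2.09 ± 0.08, adjusted p = 5.3e-21) and again at d5 (log2 0.32 ± 0.11, adjusted p = 0.0229). The d5 call was lost without Ctrl+vehicle replicate 1 or 2 or Ctrl+FGF2 replicate 1 (log2 0.28 to 0.30, adjusted p = 0.0650 to 0.0812) and with DESeq2 (log2 0.31). The knockdown left it at log2 -0.03 ± 0.06 at d2.5 (adjusted p = 0.769) and lowered it to 59.7% of Ctrl+FGF2 at d5 (log2 -0.74 ± 0.12, adjusted p = 8.7e-05).

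Shmt2 was at 193, 180 and 175 CPM in Ctrl+vehicle, 369, 386 and 379 CPM in Ctrl+FGF2 and 290, 319 and 285 CPM in Y/T dKD+FGF2 on d2.5 and at 106, 69.3 and 86.2 CPM in Ctrl+vehicle, 42.4, 39.7 and 40.5 CPM in Ctrl+FGF2 and 38.6, 36.4 and 39 CPM in Y/T dKD+FGF2 at d5. The groups did not overlap in either comparison on either day. Its log2 changes with FGF2 were 1.04 ± 0.04 and -1.08 ± 0.11, and with the knockdown -0.35 ± 0.04 (adjusted p = 9.5e-08) and -0.11 ± 0.12 (adjusted p = 0.526).

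The folate enzymes pass the one-carbon units on, Mthfd2 and Mthfd1l in mitochondria and Mthfd1 in the cytosol. Mthfd2 was at 124, 121 and 113 CPM in Ctrl+vehicle, 223, 233 and 231 CPM in Ctrl+FGF2 and 228, 225 and 220 CPM in Y/T dKD+FGF2 on d2.5 and at 126, 66.1 and 91.5 CPM in Ctrl+vehicle, 8.64, 10.4 and 10.4 CPM in Ctrl+FGF2 and 13.9, 12.1 and 10.5 CPM in Y/T dKD+FGF2 at d5. Mthfd1l was at 103, 106 and 98.3 CPM in Ctrl+vehicle, 205, 203 and 202 CPM in Ctrl+FGF2 and 197, 194 and 201 CPM in Y/T dKD+FGF2 on d2.5 and at 73.8, 50.5 and 61.1 CPM in Ctrl+vehicle, 32.1, 30.6 and 29.1 CPM in Ctrl+FGF2 and 27.1, 29.3 and 30.2 CPM in Y/T dKD+FGF2 at d5. Mthfd1 was at 73.4, 83.5 and 78.3 CPM in Ctrl+vehicle, 152, 148 and 150 CPM in Ctrl+FGF2 and 161, 149 and 145 CPM in Y/T dKD+FGF2 on d2.5 and at 63.9, 56.2 and 55.3 CPM in Ctrl+vehicle, 55.2, 49.7 and 56.9 CPM in Ctrl+FGF2 and 49.5, 50.1 and 52.3 CPM in Y/T dKD+FGF2 at d5. All 3 were higher in every FGF2-treated library of d2.5 than in any Ctrl+vehicle library, whereas at d5 Mthfd2 and Mthfd1l were lower in every one and Mthfd1 overlapped. Their log2 changes with FGF2 were alike at d2.5 (0.93 ± 0.04, 0.97 ± 0.04 and 0.92 ± 0.04 for Mthfd2, Mthfd1l and Mthfd1) and ranged from -3.24 ± 0.20 for Mthfd2 through -0.99 ± 0.10 for Mthfd1l to -0.10 ± 0.06 for Mthfd1 at d5 (adjusted p = 6.2e-10, 4.0e-07 and 0.201). None of these 3 was called with the knockdown on either day, in edgeR with log2 values from -0.10 to 0.31.

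Of the further targets, 6 of 7 tested rose with FGF2 at d2.5 and 7 of 7 fell at d5. Asns (chromosome 6, 7675169 to 7693254, minus strand), which makes asparagine, is the textbook target of Atf4. It was at 222, 219 and 219 CPM in Ctrl+vehicle, 347, 378 and 363 CPM in Ctrl+FGF2 and 325, 350 and 344 CPM in Y/T dKD+FGF2 at d2.5. At d5 Asns was at 206, 109 and 152 CPM in Ctrl+vehicle, 22, 28.3 and 25.7 CPM in Ctrl+FGF2 and 22.3, 20.1 and 23.4 CPM in Y/T dKD+FGF2. FGF2 libraries were above every Ctrl+vehicle library at d2.5 and below every one at d5, and knockdown libraries overlapped with Ctrl+FGF2 on both days. Asns rose 1.63-fold with FGF2 at d2.5 (log2 0.71 ± 0.04, adjusted p = 3.4e-17) and fell at d5 (log2 -2.60 ± 0.17, adjusted p = 1.8e-09). With the knockdown the log2 change was -0.10 ± 0.04 at d2.5 (adjusted p = 0.035) and -0.22 ± 0.22 at d5 (adjusted p = 0.49).

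Cth (chromosome 3, 157894248 to 157925077, minus strand), which makes cysteine from cystathionine, and Stc2, which encodes the secreted glycoprotein stanniocalcin 2, rose most of the 40 genes at d2.5. Cth was at 4.42, 3.36 and 3.56 CPM in Ctrl+vehicle, 19.4, 25.4 and 22.5 CPM in Ctrl+FGF2 and 16.9, 19.2 and 18.9 CPM in Y/T dKD+FGF2 on d2.5 and at 5.13, 2.58 and 3.32 CPM in Ctrl+vehicle, 1.75, 2.28 and 2.42 CPM in Ctrl+FGF2 and 0.935, 1.49 and 1.12 CPM in Y/T dKD+FGF2 at d5. Stc2 was at 6.14, 5.94 and 5.72 CPM in Ctrl+vehicle, 30.7, 30.3 and 36.3 CPM in Ctrl+FGF2 and 26.5, 28 and 26.6 CPM in Y/T dKD+FGF2 on d2.5 and at 11.2, 5.24 and 9.86 CPM in Ctrl+vehicle, 1.65, 2.52 and 1.97 CPM in Ctrl+FGF2 and 1.87, 1.91 and 0.713 CPM in Y/T dKD+FGF2 at d5. Both were low in Ctrl+vehicle on both days and high only in the FGF2-treated groups of d2.5. With FGF2 Cth rose 5.87-fold (log2 2.55 ± 0.12, adjusted p = 6.7e-18) and Stc2 5.42-fold (log2 2.44 ± 0.09, adjusted p = 2.1e-20) at d2.5. At d5 Stc2 fell (log2 -2.05 ± 0.29, adjusted p = 1.3e-05), and Cth fell by less (log2 -0.73 ± 0.25, adjusted p = 0.025). The d5 call of Cth was lost without Ctrl+vehicle replicate 1 (log2 -0.43, adjusted p = 0.172), without Ctrl+FGF2 replicate 1 (log2 -0.60, adjusted p = 0.0835) and with DESeq2 (log2 -0.77). The knockdown lowered both at d2.5 (log2 -0.30 ± 0.09 and -0.27 ± 0.07, adjusted p = 0.017 and 0.00508) and neither was called at d5 (log2 -0.86 ± 0.32 and -0.43 ± 0.40, adjusted p = 0.0502 and 0.468), on 7 to 31 reads a library. Cbs, which makes the cystathionine that Cth uses, had 0 to 7 reads a library and was not tested, so no change of it was detectable at this depth.

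Pycr1 and Aldh18a1 act in the synthesis of proline, and they moved apart with FGF2 at d2.5. Aldh18a1 was at 210, 203 and 202 CPM in Ctrl+vehicle, 287, 291 and 295 CPM in Ctrl+FGF2 and 231, 254 and 237 CPM in Y/T dKD+FGF2 on d2.5 and at 184, 135 and 165 CPM in Ctrl+vehicle, 75.9, 77.2 and 75.8 CPM in Ctrl+FGF2 and 71.7, 64.2 and 67.6 CPM in Y/T dKD+FGF2 at d5. Pycr1 was at 36.4, 38.3 and 34.7 CPM in Ctrl+vehicle, 23.6, 21.9 and 25.9 CPM in Ctrl+FGF2 and 20.3, 20 and 17.3 CPM in Y/T dKD+FGF2 on d2.5 and at 35, 24.5 and 31.2 CPM in Ctrl+vehicle, 15.3, 15.9 and 15.8 CPM in Ctrl+FGF2 and 13.1, 12.6 and 12.6 CPM in Y/T dKD+FGF2 at d5. Pycr1 was below Ctrl+vehicle in every FGF2-treated library of both days, while Aldh18a1 was above it at d2.5 and below it at d5. The log2 changes with FGF2 were -0.63 ± 0.07 and -0.93 ± 0.11 for Pycr1 (adjusted p = 2.7e-09 and 1.8e-06) and 0.49 ± 0.04 and -1.07 ± 0.08 for Aldh18a1 (adjusted p = 2.2e-13 and 1.0e-08). The knockdown lowered both at d2.5 (log2 -0.32 ± 0.08 and -0.28 ± 0.04), and at d5 neither was called (log2 -0.30 ± 0.12 and -0.18 ± 0.09). Their d5 libraries did not overlap, as was so for 45.1% of all genes in this comparison.

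Gpt2, the mitochondrial alanine transaminase, was at 97, 84.9 and 94.9 CPM in Ctrl+vehicle, 175, 195 and 184 CPM in Ctrl+FGF2 and 155, 156 and 157 CPM in Y/T dKD+FGF2 on d2.5 and at 98.4, 61 and 77.8 CPM in Ctrl+vehicle, 29.9, 28.8 and 29 CPM in Ctrl+FGF2 and 21.1, 24.2 and 21.3 CPM in Y/T dKD+FGF2 at d5. Its groups did not overlap in either comparison on either day. It changed by log2 0.99 ± 0.04 and -1.42 ± 0.12 with FGF2 and by -0.25 ± 0.04 and -0.40 ± 0.15 with the knockdown (adjusted p = 4.8e-05 and 0.0475), and the d5 knockdown call was lost in 7 of 9 fits that left out 1 library (log2 -0.47 to -0.36). Vldlr, a lipoprotein receptor that Atf4 is known to raise under stress, was at 32.7, 34.4 and 33.4 CPM in Ctrl+vehicle, 50.1, 53.6 and 52.6 CPM in Ctrl+FGF2 and 42.5, 47.4 and 47 CPM in Y/T dKD+FGF2 on d2.5 and at 47.9, 35.5 and 41.6 CPM in Ctrl+vehicle, 4.78, 7.72 and 6.37 CPM in Ctrl+FGF2 and 7.06, 6.64 and 6.82 CPM in Y/T dKD+FGF2 at d5. Ctrl+FGF2 was above Ctrl+vehicle at d2.5 and below it at d5 (log2 0.62 ± 0.06 and -2.70 ± 0.14, adjusted p = 2.8e-11 and 5.8e-11). The knockdown gave -0.20 ± 0.05 at d2.5 (adjusted p = 0.00754) and 0.10 ± 0.18 at d5 (adjusted p = 0.719).

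All 9 cytosolic tRNA synthetases of the response rose with FGF2 at d2.5 (median log2 fold change 0.49, beside 0.45 to 0.95 in the other role groups), and 8 fell at d5 (median -0.96). These enzymes load tRNAs with the amino acid that their name gives. Nars, for asparagine, was at 372, 358 and 367 CPM in Ctrl+vehicle, 597, 614 and 609 CPM in Ctrl+FGF2 and 575, 583 and 598 CPM in Y/T dKD+FGF2 on d2.5 and at 318, 236 and 280 CPM in Ctrl+vehicle, 126, 144 and 135 CPM in Ctrl+FGF2 and 137, 130 and 143 CPM in Y/T dKD+FGF2 at d5. Gars, for glycine, was at 389, 401 and 405 CPM in Ctrl+vehicle, 576, 608 and 594 CPM in Ctrl+FGF2 and 551, 556 and 563 CPM in Y/T dKD+FGF2 on d2.5 and at 379, 262 and 317 CPM in Ctrl+vehicle, 133, 130 and 130 CPM in Ctrl+FGF2 and 133, 134 and 138 CPM in Y/T dKD+FGF2 at d5. Aars, for alanine, was at 467, 463 and 459 CPM in Ctrl+vehicle, 545, 556 and 557 CPM in Ctrl+FGF2 and 484, 510 and 506 CPM in Y/T dKD+FGF2 on d2.5 and at 443, 299 and 372 CPM in Ctrl+vehicle, 108, 123 and 121 CPM in Ctrl+FGF2 and 135, 130 and 137 CPM in Y/T dKD+FGF2 at d5. In all 3 every FGF2-treated library was above Ctrl+vehicle at d2.5 and below it at d5. Nars had the largest rise (log2 0.72 ± 0.03, adjusted p = 2.3e-19) and was the only synthetase past 1.5-fold at d2.5, and Aars had the smallest rise (log2 0.24 ± 0.03) and the largest fall at d5 (log2 -1.65 ± 0.10, adjusted p = 4.7e-10). Gars changed by log2 0.56 ± 0.03 and -1.27 ± 0.09.

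Iars, for isoleucine, was at 364, 362 and 358 CPM in Ctrl+vehicle, 503, 516 and 514 CPM in Ctrl+FGF2 and 490, 490 and 495 CPM in Y/T dKD+FGF2 on d2.5 and at 262, 195 and 229 CPM in Ctrl+vehicle, 115, 119 and 119 CPM in Ctrl+FGF2 and 113, 108 and 115 CPM in Y/T dKD+FGF2 at d5. Yars, for tyrosine, was at 99.1, 104 and 103 CPM in Ctrl+vehicle, 147, 150 and 153 CPM in Ctrl+FGF2 and 141, 143 and 139 CPM in Y/T dKD+FGF2 on d2.5 and at 82.7, 65.2 and 73.7 CPM in Ctrl+vehicle, 36.8, 40.1 and 38.9 CPM in Ctrl+FGF2 and 40.5, 42.4 and 39.2 CPM in Y/T dKD+FGF2 at d5. Mars1, for methionine, was at 141, 142 and 141 CPM in Ctrl+vehicle, 202, 201 and 205 CPM in Ctrl+FGF2 and 172, 186 and 177 CPM in Y/T dKD+FGF2 on d2.5 and at 114, 80.3 and 94.7 CPM in Ctrl+vehicle, 54.2, 48.1 and 51.9 CPM in Ctrl+FGF2 and 52.5, 58.8 and 53.8 CPM in Y/T dKD+FGF2 at d5. Again no vehicle library overlapped with a Ctrl+FGF2 library on either day, and the FGF2-treated libraries held the higher values at d2.5 and the lower ones at d5. The log2 changes of Iars, Yars and Mars1 with FGF2 were 0.49 ± 0.03, 0.54 ± 0.04 and 0.51 ± 0.04 at d2.5 and -0.94 ± 0.07, -0.92 ± 0.07 and -0.89 ± 0.09 at d5. The 3' ends of Mars1 and Ddit3 overlap on opposite strands, which the counts of 1 strand used here keep apart.

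Sars, for serine, was at 345, 340 and 339 CPM in Ctrl+vehicle, 441, 477 and 470 CPM in Ctrl+FGF2 and 398, 417 and 412 CPM in Y/T dKD+FGF2 on d2.5 and at 321, 251 and 279 CPM in Ctrl+vehicle, 132, 152 and 139 CPM in Ctrl+FGF2 and 137, 143 and 140 CPM in Y/T dKD+FGF2 at d5. Eprs, for glutamate and proline, was at 505, 469 and 485 CPM in Ctrl+vehicle, 571, 604 and 597 CPM in Ctrl+FGF2 and 534, 576 and 567 CPM in Y/T dKD+FGF2 on d2.5 and at 532, 389 and 450 CPM in Ctrl+vehicle, 217, 241 and 237 CPM in Ctrl+FGF2 and 195, 200 and 208 CPM in Y/T dKD+FGF2 at d5. Both stood between Ctrl+vehicle and Ctrl+FGF2 in the knockdown libraries of d2.5, with 1 Eprs library within the Ctrl+FGF2 range. With FGF2 they changed by log2 0.43 ± 0.03 and 0.27 ± 0.03 at d2.5 and by -0.99 ± 0.07 and -0.96 ± 0.08 at d5. Wars, for tryptophan, rose at d2.5 (log2 0.48 ± 0.05, adjusted p = 2.2e-10), and at d5 its vehicle and FGF2 libraries overlapped (log2 -0.13 ± 0.07, adjusted p = 0.158). With the knockdown 5 of the 9 were lower at d2.5 (Sars, Gars, Aars, Wars and Mars1, log2 -0.21 to -0.10) and 0 of 9 were called at d5 in edgeR (log2 -0.21 to 0.19), of which Eprs alone had an unadjusted p under 0.05 (adjusted p = 0.0505).

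**Figure D4:**
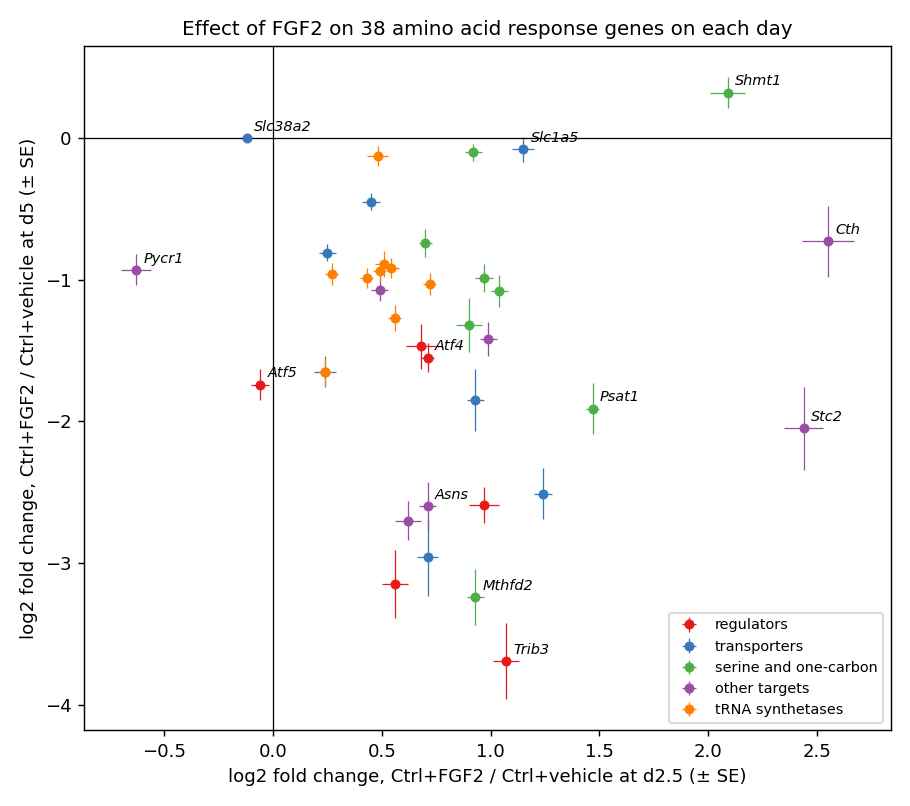
Log2 fold change with FGF2 at d2.5 (horizontal axis, ± SE) against that at d5 (vertical axis, ± SE) for the 38 genes tested on both days, coloured by role. Most points lie in the lower right field, higher at d2.5 and lower at d5, with Shmt1 (2.09 and 0.32) above 0 on both axes and Pycr1 (-0.63 and -0.93) below 0 on both.

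Whether the effect of FGF2 itself differed between the days was tested as an interaction in a fit of all 18 libraries. It differed for 38 of 39 genes, 37 of them lower at d5, while 60.9% of 14198 genes were called (29.1% lower). The log2 difference was -4.78 ± 0.26 for Trib3, -4.50 ± 0.28 for Stc2, -4.19 ± 0.19 for Mthfd2 and -2.28 ± 0.11 for Atf4 (adjusted p = 9.3e-16, 1.7e-14, 1.3e-17 and 4.6e-17). The smallest differences were those of Pycr1 (log2 -0.32 ± 0.13, adjusted p = 0.0373) and Slc38a2 (log2 0.10 ± 0.04, adjusted p = 0.0459), and they lost their calls in 8 and 14 of 18 fits that left out 1 library. The effect of the knockdown differed between the days for 6 of 39 genes, while 20.9% of all genes were called. It was higher at d5 for Nupr1 (log2 1.12 ± 0.16, adjusted p = 6.5e-06), Slc3a2 (0.45 ± 0.08, 1.7e-04), Atf4 (0.36 ± 0.11, 0.0182), Aars (0.34 ± 0.11, 0.0223) and Mars1 (0.29 ± 0.10, 0.0444), and lower for Shmt1 (-0.72 ± 0.13, 1.1e-04). Of these, Mars1 lost its call in 12, Aars in 5 and Atf4 in 1 of 18 fits that left out 1 library.

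Y/T dKD+FGF2 cells were also compared with Ctrl+vehicle, which sets FGF2 and the knockdown together against neither. Against Ctrl+vehicle Yap1 was lower on both days (log2 -1.18 ± 0.04 and -1.05 ± 0.05), whereas Wwtr1, which FGF2 raised at d2.5 (log2 0.65 ± 0.04), was lower at d5 (log2 -0.89 ± 0.04) and not called at d2.5 (log2 -0.06 ± 0.04, adjusted p = 0.122). At d2.5, 30 of 39 genes were higher, 3 lower (Pycr1, Slc38a2 and Atf5) and 6 not called, while 69.8% of all genes were called, 34.1% higher, and the median log2 fold change was 0.46. Atf4 was higher by log2 0.52 ± 0.03, Psat1 by 1.41 ± 0.03 and Slc7a5 by 0.82 ± 0.04, and Slc6a9 was not called (0.09 ± 0.06, adjusted p = 0.162). At d5, 38 of 38 genes tested were lower, while 41.8% of all genes were called, 21.1% lower, and the median was -1.29. Atf4 was lower by log2 -1.37 ± 0.10, Nupr1 by -1.45 ± 0.12 and Trib3 by -4.92 ± 0.32, and Shmt1, which was higher than in Ctrl+vehicle with FGF2 alone, was lower here (-0.42 ± 0.12, adjusted p = 0.01), a call lost without Ctrl+vehicle replicate 3 (adjusted p = 0.0546).

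At d5 the Ctrl+vehicle libraries spread more for these genes than for others, and in 1 order. The median CV over the 3 libraries was 18.3% for the 38 genes tested and 6.71% for all genes tested, against 3.45% and 5.92% in Ctrl+vehicle of d2.5. Replicate 1 was highest for 35 of the 38 genes and replicate 2 lowest for 35, whereas over all genes replicate 1 was highest for 36.4% and replicate 2 lowest for 33.0%. Other groups had a less complete order. At d2.5, Ctrl+vehicle replicate 1 was highest for 64.1% (36.6% of all genes). Ctrl+FGF2 replicate 1 was lowest for 71.8% at d2.5 (34.4%) and for 60.5% at d5 (34.7%). Y/T dKD+FGF2 replicate 2 was highest for 59% at d2.5 (31.6%) and for 36.8% at d5 (35.1%). Summed over the 40 genes, the levels were 6380, 4700 and 5530 CPM in the 3 d5 Ctrl+vehicle libraries and between 2740 and 3000 CPM in the 6 FGF2-treated libraries of d5. The summed level of 8 proliferation genes went in the same order in these Ctrl+vehicle libraries (735, 444 and 597 CPM), total gene counts went in the opposite order (11026929, 13527647 and 12388773), and their part in the spread was not tested. Without Ctrl+vehicle replicate 1 the FGF2 comparison of d5 called 32 lower and without Ctrl+vehicle replicate 2 it called 34 lower. The shares called were 84.2% and 89.5%, beside 42.6% and 45.2% of all genes.

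Proliferation and bone genes moved with the same groups. With FGF2 all 8 proliferation genes (Ccna2, Ccnb1, Cdk1, Mcm2, Mcm5, Mki67, Pcna and Top2a) rose at d2.5 (median log2 1.11) and all 8 fell at d5 (median -1.40), as most amino acid response genes did. With the knockdown 5 of the 8 rose at d2.5 and all 8 at d5 (median 0.81). The 6 osteoblast markers (Runx2, Sp7, Alpl, Ibsp, Bglap and Col1a1) summed to 13300 to 13400 CPM in Ctrl+vehicle and to 2300 to 2430 CPM in Ctrl+FGF2 at d2.5, and to 31100 to 33100 and 15900 to 17600 CPM at d5, so their sum was lower with FGF2 on both days. By gene, all 5 tested fell at d2.5, and at d5 4 fell while Runx2 and Sp7 rose (log2 0.40 ± 0.05 and 0.32 ± 0.09). With the knockdown 2 of 5 rose and 1 fell at d2.5, and all 6 rose at d5 (median 0.72, summed level 21900 to 23200 CPM). Chondrocyte markers (Acan, Col2a1 and Matn1) summed to 539 to 759 CPM in Ctrl+vehicle and 39.8 to 44.6 CPM in Ctrl+FGF2 at d2.5, and to 174 to 278 and 240 to 348 CPM at d5. Smooth muscle markers (Acta2, Myh11 and Cnn1) summed to 158 to 220 and 20.5 to 21.5 CPM in these groups at d2.5, and to 1950 to 2050 and 2600 to 2980 CPM at d5. Adipocyte markers (Adipoq, Plin1 and Fabp4) summed to at most 35.2 CPM in any library. The part of cell division and of these lineage genes in the values of the amino acid response genes was not tested.

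Genes upstream of Atf4 and its partners were described from lists of their own. Of 16 genes for eIF2, its exchange factor, kinases and phosphatase, 8 rose and 4 fell with FGF2 at d2.5 and 1 rose and 7 fell at d5, with medians of 0.14 and -0.16. The shares called in either direction, 75% and 50%, were near the 67.6% and 47.2% of all genes. By direction, 50% were higher and 25% lower at d2.5, beside 33.5% and 34.1% of all genes. At d5, 6.25% were higher and 43.8% lower, beside 23.5% and 23.7%, and the direction was not tested. The eIF2 kinase genes were not among those that rose at d2.5, with log2 -0.80 ± 0.05 for Eif2ak3 (PERK), -0.01 ± 0.05 for Eif2ak4 (GCN2), -0.20 ± 0.05 for Eif2ak1 (HRI) and -0.35 ± 0.05 for Eif2ak2 (PKR), of which Eif2ak4 was not called. These 4 are named as the kinases of eIF2 and not for their size of change. With the knockdown at d2.5 their mean levels, in the same order, went from 30.1 to 35.3, 44 to 50.2, 52.8 to 54.8 and 55.4 to 67.2 CPM. With FGF2 at d5 the means went from 69.9 to 52.2, 40.6 to 52, 58.8 to 60.4 and 69.7 to 68.1 CPM. With the knockdown, 3 of the 16 genes were higher and 3 lower at d2.5, and 1 was higher and 1 lower at d5. The shares called were 37.5% and 12.5%, beside 24.5% and 31.7% of all genes. Ppp1r15a (GADD34), itself a target of Atf4 that ends eIF2 phosphorylation, rose at d2.5 (log2 0.93 ± 0.09), fell at d5 (-0.51 ± 0.11) and was lower with the knockdown at d2.5 (-0.61 ± 0.09). Its rise at d2.5 and its fall with the knockdown at d2.5 were the largest of this list. Of the dimer partners, 4 of 8 tested rose and 3 fell with FGF2 at d2.5, 3 of 9 rose and 4 fell at d5, and with the knockdown 5 of 8 were lower at d2.5 and 5 of 9 higher at d5. With FGF2 87.5% and 77.8% were called, beside 67.6% and 47.2% of all genes. For the knockdown, 13.6% of all genes were lower at d2.5 and 15.6% higher at d5. With FGF2 the log2 fold changes of the partners ran from -1.28 to 1.46 at d2.5 and from -1.37 to 0.92 at d5. With the knockdown they ran from -0.87 to 0.18 at d2.5 and from -0.26 to 0.95 at d5. The partners named next stand at neither end of these ranges. Cebpg rose at d2.5 (log2 0.74 ± 0.05) and fell at d5 (-0.86 ± 0.08) and was not called with the knockdown (0.05 ± 0.04 and 0.16 ± 0.09). Atf3 was lower with the knockdown at d2.5 (log2 -0.71 ± 0.11) and higher at d5 (0.92 ± 0.13), as was Jun (-0.27 ± 0.04 and 0.62 ± 0.06).

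Further known targets of Atf4 that are not among the 40 (Atf3, Cebpg and Ppp1r15a stand in this list too) moved as follows. Of 23 tested at d2.5, 13 rose and 4 fell with FGF2 (median 0.38), and 16 were lower and 1 higher with the knockdown (median -0.23), beside the backgrounds of 33.5% and 13.6% given for all genes. Of 24 tested at d5, 2 rose and 14 fell with FGF2 (median -0.47), and 4 were higher and 4 lower with the knockdown (median 0.01). Of all genes 23.7% fell with FGF2 at d5, and 31.7% were called with the knockdown, beside 33.3% of this list. Aldh1l2, a mitochondrial folate enzyme, fell with FGF2 on both days (log2 -0.44 ± 0.04 and -3.15 ± 0.19) and Bcat1, the cytosolic branched-chain transaminase, rose and then fell (0.34 ± 0.04 and -1.95 ± 0.13). Among 14 other cytosolic synthetase genes and complex parts, 13 rose with FGF2 at d2.5 (median 0.66), 8 fell and 1 rose at d5, Vars having the largest rise (1.02 ± 0.04) and Cars the largest fall (-1.23 ± 0.10). The shares called, 92.9% and 64.3%, stood beside 67.6% and 47.2% of all genes.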

How the data were processed

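Polyadenylated RNA of 18 samples was sequenced by the authors, who deposited raw counts per gene for 1 library a file, in columns without strand and for each strand. The labels name the mouse build mm10, and the submitters' processing notes name FastQC, STAR, Picard and featureCounts, with versions not given in the sources used here. The reverse-strand column was used, since it held 96.0% to 96.6% of stranded counts, and rows that name no gene (27.0% to 34.4% of counts) were left out. Identifiers were matched to GENCODE M21 (55154 of 55335).

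Genes passing edgeR's filterByExpr were fitted per day over 9 libraries with edgeR 4.0.16 (R 4.3.3), TMM factors and the quasi-likelihood F test, with no block, and Benjamini-Hochberg adjustment over all genes tested. An SE is the log2 fold change over the square root of F. Differences between days came from 1 fit of 18 libraries. The fit was tested on simulated data with 1 setting of spread for all genes and groups. It was thus not tested at the spread of these genes in d5 Ctrl+vehicle (median CV 18.3%). Motifs and figures were made with python 3.11.15. The 40 genes and the other lists were chosen with earlier results of these data known. Values of every library are given for the regulators and for members of each role called with at least 1.5-fold change in a comparison, and others by range, with up to 3 genes with the largest called changes from each other list. Alternatives were DESeq2 1.42.0, other scalings, filters, strand, thresholds, sample sets and each library left out.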

Additional observations from a re-analysis of the deposited data

Results flagged for a closer look

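The effect of FGF2 differed between d2.5 and d5 by the interaction test in edgeR for 38 of 39 genes, so that each is listed with its log2 difference, d5 minus d2.5. Among the regulators these were Atf4 (-2.28), Atf5 (-1.71), Ddit3 (-2.18), Trib3 (-4.78), Chac1 (-3.73) and Nupr1 (-3.58). Transporters gave Slc7a1 (-1.91), Slc7a5 (-3.78), Slc7a11 (-2.80), Slc3a2 (-0.92), Slc1a4 (-1.09), Slc1a5 (-1.25), Slc38a2 (0.10) and Slc6a9 (-3.68). For the serine and one-carbon enzymes the differences were Psat1 (-3.41), Phgdh (-1.46), Psph (-2.23), Shmt1 (-1.79), Shmt2 (-2.13), Mthfd1 (-1.05), Mthfd1l (-1.99) and Mthfd2 (-4.19). The further targets followed with Asns (-3.33), Aldh18a1 (-1.58), Pycr1 (-0.32), Cth (-3.30), Gpt2 (-2.43), Vldlr (-3.34) and Stc2 (-4.50). For the synthetases they were Sars (-1.44), Gars (-1.85), Aars (-1.91), Nars (-1.77), Wars (-0.64), Yars (-1.49), Eprs (-1.25), Iars (-1.45) and Mars1 (-1.42). Slc38a2 alone had a positive difference.

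The effect of the knockdown differed between the days for Atf4 (0.36), Nupr1 (1.12), Slc3a2 (0.45), Shmt1 (-0.72), Aars (0.34) and Mars1 (0.29), again as log2 differences. Nupr1 was higher in Y/T dKD+FGF2 than in Ctrl+FGF2 at d5 and was not called at d2.5, and Shmt1 was lower at d5 and not called at d2.5. No group held enough libraries for a check of single samples that stand apart.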

How the results depend on the processing

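The direction of most calls was the same under every alternative for FGF2 on each day, for the knockdown at d2.5 and for the FGF2 effect between days. At 1.5-fold, the 2 calls left for the knockdown at d5 were 1 higher and 1 lower, as were those for the knockdown effect between days. With FGF2 at least 1.5-fold, 23 genes were called at d2.5 (59%, beside 29.5% of all genes). Under the knockdown at d2.5, 1 passed 1.5-fold (2.56%, beside 2.02% of all genes), and at d5 2 did (5.26%, beside 8.11%). Without a filter on low counts, 21 were called at d5 (52.5%, beside 18.1% of all genes). A fit of the 2 groups alone called 18 at d5 (47.4%, beside 34% of all genes). Against Ctrl+vehicle at d2.5, 18 genes of Y/T dKD+FGF2 passed 1.5-fold (46.2%, beside 31.5% of all genes). For the difference of the knockdown effect between days, the main fit called 6 (15.4%, beside 20.9% of all genes). DESeq2 called 3 (7.5%, beside 4.14%) and no filter gave 12 (30%, beside 10.6%). These 2 backgrounds include genes with few reads. An adjusted p under 0.01 gave 3 (7.69%, beside 12.5%), and 1.5-fold gave 2 (5.13%, beside 6.01%). The share was thus above that of all genes with DESeq2 and without a filter, and below it in the other settings named here. The cause of these moves was not tested, other than the stricter threshold where one was set.

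Leaving out 1 library at a time, the counts ran from 37 to 37 (FGF2 at d2.5), 32 to 34 (FGF2 at d5), 21 to 29 and 5 to 17 (knockdown at d2.5 and d5), 32 to 36 and 36 to 38 (Y/T dKD+FGF2 against Ctrl+vehicle), 36 to 38 (FGF2 effect between days) and 4 to 8 (knockdown effect between days). For the knockdown at d2.5, the lowest and highest counts were 53.8% and 74.4% of the genes, beside 17.9% and 27.6% of all genes. For the knockdown at d5 they were 13.2% and 44.7%, beside 25% and 33.1%. Under the knockdown at d2.5 the calls of Asns, Cth, Gars, Slc7a1, Stc2 and Vldlr were lost in at least 1 such fit (log2 -0.30 to -0.07).

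Deviations of same-numbered libraries of different groups correlated weakly across genes (r from -0.087 to 0.05 at d2.5 and from -0.072 to 0.185 at d5, with 0 and 2 of 9 pairs above 0.1). Those 2 pairs were d5 Ctrl+vehicle with Ctrl+FGF2, for replicate 1 (0.169) and replicate 2 (0.185). Replicate 1 of either group with replicate 2 of the other gave -0.157 and -0.18. Nothing in the labels says that the numbers pair libraries, so the main fits left them unpaired, with a replicate block as an alternative. With the replicate block the counts were 37, 26, 34 and 10 for FGF2 and knockdown at d2.5 and then d5, 33 and 38 against Ctrl+vehicle, and 38 and 6 for the differences between days. In the same order the shares were 94.9%, 66.7%, 89.5%, 26.3%, 84.6%, 100%, 97.4% and 15.4%. Of all genes 67.1%, 23.6%, 47.7%, 32.7%, 69.6%, 42.7%, 60.7% and 21.5% were called. Upper-quartile scaling moved the median of all genes in the FGF2 effect between days from 0.034 to 0.124, and 36 of 39 genes were then lower at d5. Groups of 3 libraries limit what small changes could be called, and Cth and Stc2 had 7 to 31 reads a library in the FGF2-treated groups of d5.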

Other observations

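Of 17 synthetases that charge mitochondrial tRNAs, 7 rose and 0 fell with FGF2 at d2.5 (median log2 0.11), and at d5 2 rose and 1 fell (median -0.02). The shares called, 41.2% and 17.6%, were below the 67.6% and 47.2% of all genes. Yars2 rose most (0.74 ± 0.09) and Mars2 was the 1 called on both days, higher and then lower (0.62 ± 0.08 and -0.25 ± 0.10). Whether they differ from the cytosolic synthetases was not tested.

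Of 13 further folate and glycine genes tested, 8 rose and 3 fell with FGF2 at d2.5 (median log2 0.47), and 2 rose and 6 fell at d5 (median -0.11). The shares called, 84.6% and 61.5%, stood beside 67.6% and 47.2% of all genes. Tyms, which makes thymidylate, rose at d2.5 (1.20 ± 0.06), was lower with FGF2 at d5 (-0.50 ± 0.09), and under the knockdown it rose at d2.5 as well as d5 (0.21 ± 0.05 and 0.51 ± 0.09).

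Chaperone and ER stress genes of the Xbp1 and Atf6 branches did not rise as a list with FGF2. At d2.5 2 of 12 rose and 6 fell (median log2 -0.12), and at d5 0 rose and 7 fell (median -0.22) in edgeR. The shares called were 66.7% and 58.3%, beside 67.6% and 47.2% of all genes. The share called in either direction at d2.5 was thus near that of all genes. By direction, 16.7% were higher and 50% lower at d2.5, beside 33.5% and 34.1% of all genes, and the direction was not tested. With the knockdown at d5, 9 of 12 were higher (75%, beside 15.6% of all genes, median 0.21), such as Manf (0.40 ± 0.05) and Sdf2l1 (0.38 ± 0.11). Of 9 Nrf2 targets, 6 rose and 2 fell with FGF2 at d2.5 and 2 rose and 5 fell at d5, and Nqo1 went the other way, lower at d2.5 (-1.03 ± 0.05) and higher at d5 (0.89 ± 0.09). The shares called, 88.9% and 77.8%, stood beside 67.6% and 47.2% of all genes. Slc7a11, counted above among the transporters, is 1 of these 9.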
